A study of Mus musculus with 12 samples.

Results

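Mural cells wrap the outside of blood vessels. Pericytes sit on capillaries and smooth muscle cells on arteries and larger veins, and they hold vessels together and set their width. They are recruited by platelet-derived growth factor B from the endothelium acting on the receptor Pdgfrb, they are kept mature by the Notch3 receptor, and those that contract switch on a set of muscle genes through serum response factor (SRF) and its partner myocardin. In tumours, activated fibroblasts make some of the same proteins, above all Acta2, Tagln and Pdgfrb. The 10 genes described here are the contractile genes Acta2, Tagln, Cnn1 and Myh11, the intermediate filament gene Des, and the receptor, surface, channel and signalling genes Pdgfrb, Notch3, Cspg4, Abcc9 and Rgs5. They were chosen by symbol, and all 10 were found among 57186 gene identifiers in the deposited table and passed the filter on low counts.

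The values come from messenger RNA of 12 tumours raised in mice from 4T1, a triple-negative mammary carcinoma line of mouse origin. The 6 Tn tumours grew from cells in which the gene Cosmc had been silenced by CRISPR/Cas9, and the 6 WT tumours from the parental cells. Cosmc, listed as C1galt1c1, encodes a chaperone needed to lengthen O-linked glycans, and cells that lack it carry the short Tn antigen. Whether the silenced cells were a single clone, and the strain and age of the mice, are not given in the sources used here. The tumours were picked to span different sizes, and only RNA with an integrity number over a fixed limit was sequenced. Whole tumour tissue was used, so that a lower level of a mural gene cannot be told apart as fewer mural cells or as less RNA per cell.

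Total counts ran from 113575859 to 156880766 per tumour. The series' design text gives a depth of about 20000000 to 30000000 reads a sample, and the gap is larger than counting both mates of a pair would give and is unexplained. C1galt1c1 was at 11.3 ± 0.775 CPM in Tn tumours and 19.6 ± 3.05 CPM in WT tumours (SD, n = 6 each). Tn tumour 6 had the highest summed level of basal epithelial markers, at 3075 CPM, Tn tumour 4 the highest of leukocyte markers, at 836.4 CPM, and WT tumour 6 the highest of adipocyte markers, at 1334 CPM, and counts over gene lists that move by over 1.5 times without these 3 are given beside the list. CPM are counts scaled to a common library total with TMM factors, fold changes are Tn over WT on the log2 scale, and a gene was called when its Benjamini-Hochberg adjusted p over 19255 genes was under 0.05 in edgeR's quasi-likelihood test.

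Of the 10 genes, 8 fell and 0 rose in Tn tumours, and Rgs5 and Des did not pass. Among all genes tested, 17.4% were called lower and 19.5% were called higher, 36.8% in all. The median log2 fold change was -1.60 over the 10 genes and 0.01 over all genes tested. In 6 of the 10 genes every Tn tumour lay below every WT tumour, a separation seen in 8.35% of all genes tested, and in 0 of the 10 every Tn tumour lay above every WT tumour, against 8.81%. Summed over the 10 genes, the level ran from 164.8 to 433.1 CPM in Tn tumours and from 453.8 to 836.6 CPM in WT tumours.

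**Figure D1:**
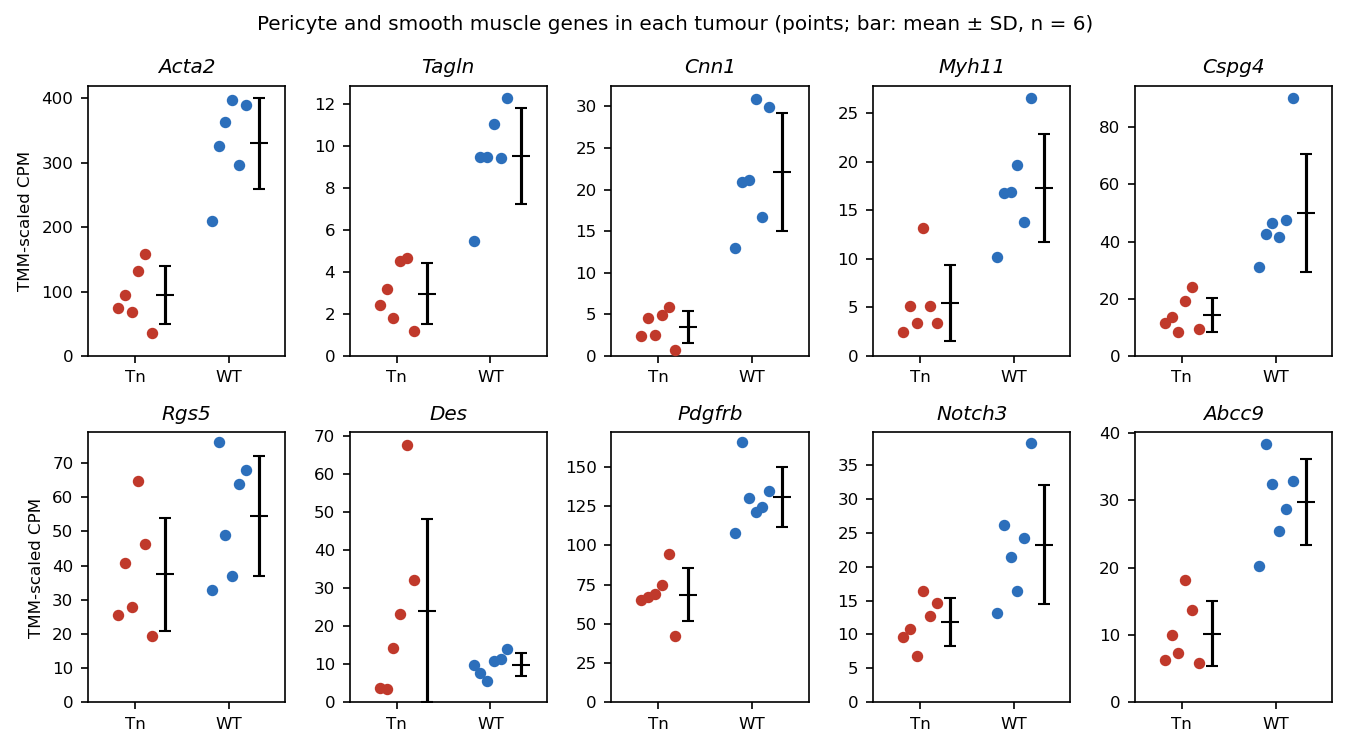
Level of each of the 10 genes in each tumour in TMM-scaled CPM (points, Tn left of WT), with the mean and SD of 6 tumours as a bar. Tn and WT points do not overlap for Acta2, Tagln, Cnn1, Cspg4, Pdgfrb and Abcc9, and Des alone has its highest points among Tn tumours.

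SRF binds a promoter motif named the CArG box. RefSeq promoter windows of 300 bases (250 before and 50 after the listed start, build GRCm38.p6) were found for 7 of the 10 genes, Acta2, Cnn1, Cspg4, Rgs5, Des, Notch3 and Abcc9. The windows of Acta2 and Cnn1 are shown because these genes had the highest level and the largest fall of the contractile genes. The Acta2 window lies at chr19:34255324-34255623 on the minus strand and the Cnn1 window at chr9:22099003-22099302 on the plus strand, and capitals mark CArG boxes in which 1 of the 6 inner bases may be G or C.
Acta2: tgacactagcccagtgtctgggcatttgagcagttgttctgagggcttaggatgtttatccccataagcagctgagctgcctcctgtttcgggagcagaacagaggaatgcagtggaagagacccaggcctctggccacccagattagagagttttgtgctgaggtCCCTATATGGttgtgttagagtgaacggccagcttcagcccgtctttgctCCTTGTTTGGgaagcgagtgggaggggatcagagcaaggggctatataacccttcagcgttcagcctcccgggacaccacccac
Cnn1: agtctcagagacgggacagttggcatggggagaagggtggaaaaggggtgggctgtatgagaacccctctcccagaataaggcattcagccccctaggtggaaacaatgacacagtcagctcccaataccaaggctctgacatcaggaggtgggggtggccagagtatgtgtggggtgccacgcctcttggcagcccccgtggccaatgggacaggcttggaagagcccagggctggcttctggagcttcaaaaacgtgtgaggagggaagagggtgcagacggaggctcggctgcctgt

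The Acta2 window held 2 such boxes, starting 84 and 34 bases before the listed start. It was the only 1 of the 7 windows with a box of this form, and the Cnn1 window held none. Of 32851 promoter windows in the table, 9.98% held at least 1 box of this form and 0.822% held 2 or more. The form with 6 inner bases of A or T was in 1.63% of windows and in 0 of the 7 windows of these genes. The pattern reads the same on both strands. The letters TGGGAA, a core bound by the Notch partner Rbpj, were searched on both strands and found in the windows of Acta2, where they overlap the second box, and of Abcc9, against 25.6% of all windows. A match of letters is a description of the sequence and was not tested for binding.

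Acta2, smooth muscle actin (ENSMUSG00000035783, GRCm39 chromosome 19, 34218490 to 34232990), was the most abundant of the 10 genes. It ran from 35.9 through a median of 84.5 to 158.7 CPM in Tn tumours, and from 209.9 through a median of 345 to 398.1 CPM in WT tumours. The groups were fully apart, with Tn tumour 6 lowest and WT tumour 4 highest. Acta2 fell by 1.81 ± 0.31 on the log2 scale (SE, edgeR adjusted p = 0.000928), to 28.4% of the WT mean. Its coding sequence is close to those of the other muscle actins, so how reads were split among them is uncertain.

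Cnn1, calponin, a protein that binds actin and slows the myosin motor (ENSMUSG00000001349, chromosome 9, 22010512 to 22020926), had the largest fall of the 10 genes. It ran from 0.653 through a median of 3.59 to 5.84 CPM in Tn tumours, and from 12.96 through a median of 21.1 to 30.9 CPM in WT tumours. The highest Tn tumour thus stood well below the lowest WT tumour. Cnn1 fell by 2.66 ± 0.44 on the log2 scale (SE, edgeR adjusted p = 0.000774), to 15.8% of the WT mean.

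Tagln, transgelin, another actin-binding protein of smooth muscle (ENSMUSG00000032085, chromosome 9, 45840917 to 45847356), was at 2.98 ± 1.43 CPM in Tn tumours and 9.54 ± 2.31 CPM in WT tumours (SD, n = 6 each). The groups did not overlap, and the log2 fold change was -1.68 ± 0.32 (SE, edgeR adjusted p = 0.00187). In the deposited annotation 67.9% of the exon bases of Tagln are also exon of Pcsk7 or of the long noncoding gene Gm48529 on the opposite strand. The counting used no strand and no option for reads that fall on several genes, so reads there may not have been counted for Tagln, and its level is uncertain. Pcsk7 was higher in Tn tumours, at 26.2 ± 2.46 CPM in Tn tumours and 22.7 ± 1.30 CPM in WT tumours (SD, n = 6 each), by 0.21 on the log2 scale (edgeR adjusted p = 0.045). Gm48529 was at 0.710 ± 0.113 CPM in Tn tumours and 0.760 ± 0.0673 CPM in WT tumours (SD, n = 6 each), and it did not pass (edgeR adjusted p = 0.655).

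Myh11, the heavy chain of smooth muscle myosin and a marker of contractile cells (ENSMUSG00000018830, chromosome 16, 14012399 to 14109236), ran from 2.42 through a median of 4.31 to 13.2 CPM in Tn tumours and from 10.2 through a median of 16.8 to 26.6 CPM in WT tumours. The groups overlapped through Tn tumour 4 alone, which lay above WT tumour 1. Myh11 changed by -1.66 ± 0.39 on the log2 scale (SE, edgeR adjusted p = 0.00561), and without Tn tumour 4 it was -2.13.

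Pdgfrb, the receptor through which endothelium recruits pericytes (ENSMUSG00000024620, chromosome 18, 61178222 to 61218133), fell less steeply. It ran from 42.1 through a median of 68.3 to 94.4 CPM in Tn tumours and from 108.2 through a median of 127.3 to 165.8 CPM in WT tumours, again with no overlap. Pdgfrb fell by 0.93 ± 0.16 on the log2 scale (SE, edgeR adjusted p = 0.000984), to 52.5% of the WT mean. Its spread between tumours was the smallest of the 10 genes in each group, with a coefficient of variation of 24.5% in Tn tumours and 14.8% in WT tumours.

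Notch3, the Notch receptor of mural cells (ENSMUSG00000038146, chromosome 17, 32339794 to 32385826), was at 11.8 ± 3.5 CPM in Tn tumours and 23.2 ± 8.76 CPM in WT tumours (SD, n = 6 each). Tn tumours 4 and 6 lay above WT tumour 1, and Tn tumour 4, at 16.46 CPM, was just above WT tumour 4, at 16.4 CPM, so the groups overlapped. Notch3 changed by -0.97 ± 0.26 on the log2 scale (SE, edgeR adjusted p = 0.0124). Opposite-strand exons of the noncoding gene Gm17276 cover 6.03% of its exon bases, and such exons cover 5.89% of those of Des and 1.89% of those of Abcc9.

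Cspg4, the proteoglycan NG2 on the surface of pericytes and of some glial and tumour cells (ENSMUSG00000032911, chromosome 9, 56772317 to 56807154), ran from 8.22 through a median of 12.6 to 24 CPM in Tn tumours and from 31.0 through a median of 44.7 to 90.3 CPM in WT tumours. The groups did not overlap, with WT tumour 6 far above the other WT tumours. Cspg4 changed by -1.80 ± 0.31 on the log2 scale (SE, edgeR adjusted p = 0.000956).

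Abcc9, the sulphonylurea receptor subunit of the ATP-sensitive potassium channel of mural cells (ENSMUSG00000030249, chromosome 6, 142533588 to 142648041), was at 10.2 ± 4.87 CPM in Tn tumours and 29.7 ± 6.38 CPM in WT tumours (SD, n = 6 each), with no overlap. Abcc9 changed by -1.54 ± 0.28 on the log2 scale (SE, edgeR adjusted p = 0.00146). Kcnj8, which encodes the pore of the same channel, fell with it, by 1.25 on the log2 scale (edgeR adjusted p = 0.00769). Kcnj8 ran from 2.44 to 7.66 CPM in Tn tumours and from 7.73 to 14.8 CPM in WT tumours. The subunits of the related channel of endocrine cells, Abcc8 and Kcnj11, had means of at most 0.468 CPM in either group and did not pass (edgeR adjusted p = 0.184 and 0.846).

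Rgs5, a brake on G protein signalling and a common pericyte marker (ENSMUSG00000026678, chromosome 1, 169483070 to 169523382), differed from these genes in that it did not pass. It ran from 19.6 through a median of 34.3 to 64.7 CPM in Tn tumours and from 33.0 through a median of 56.4 to 76.1 CPM in WT tumours. The ranges overlapped broadly, and Tn tumour 4 was above 4 of the 6 WT tumours. Its fold change was -0.54 ± 0.30 (SE, edgeR adjusted p = 0.17). A 95% interval from this SE ran from -1.12 to 0.04. It used the normal distribution and not that of the edgeR test, so it may be too narrow. Without Tn tumour 4, Rgs5 passed at -0.75 (edgeR adjusted p = 0.0475).

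Des, desmin, the intermediate filament of pericytes and of all muscle types (ENSMUSG00000026208, chromosome 1, 75336973 to 75345223), was the gene with a positive fold change. It ran from 3.43 through a median of 18.8 to 67.6 CPM in Tn tumours, and from 5.55 through a median of 10.3 to 14.1 CPM in WT tumours. Tn tumours 3, 4, 5 and 6 were above every WT tumour, while Tn tumours 1 and 2 were below every WT tumour. Des differed by 1.28 ± 0.61 on the log2 scale (SE, edgeR adjusted p = 0.12), and the value was 0.40 with limma voom. Single tumours moved it both ways, to 0.64 without Tn tumour 5 (edgeR adjusted p = 0.367) and to 1.52 without Tn tumour 2, where it passed (edgeR adjusted p = 0.0475).

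Desmin is also abundant in skeletal muscle, and markers of that tissue varied among tumours. Of 12 such markers 10 were tested, with 0 called in either direction, and their summed level ran from 5.25 to 163.1 CPM in Tn tumours and from 4.89 to 70.3 CPM in WT tumours. The order of this sum among Tn tumours put tumour 5 first, then tumours 6 and 3, at 163.1, 73.5 and 53.9 CPM, where Des was at 67.6, 32.2 and 14.3 CPM. Tn tumour 4 had 23.2 CPM of Des with 8.76 CPM of muscle markers, and its skeletal actin Acta1 was at 0.0577 CPM. WT tumour 6 had 14.1 CPM of Des with 70.3 CPM of muscle markers. With the muscle level as a covariate the log2 fold change of Des was 0.98 (edgeR adjusted p = 0.129). Which cells made Des was not tested.

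**Figure D2:**
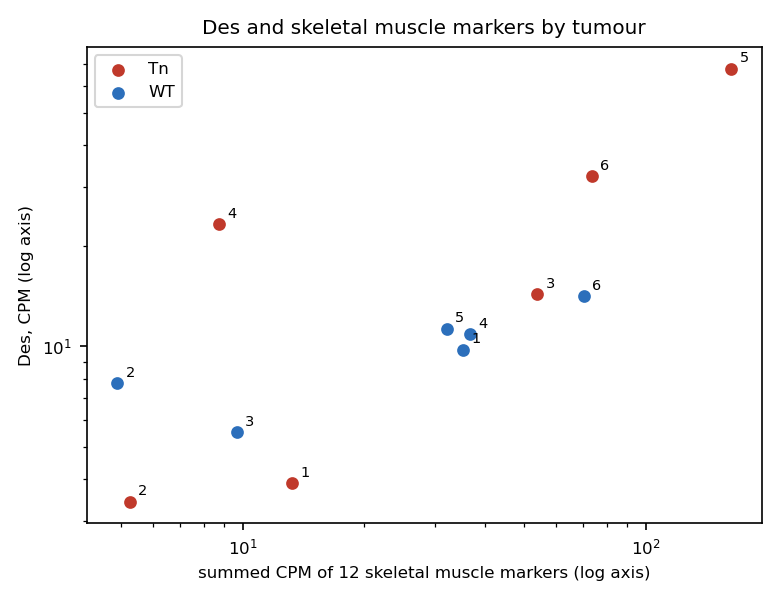
Des in CPM against the summed CPM of 12 skeletal muscle markers, both on log axes, with 1 point per tumour numbered within Tn and WT. Tn tumour 5 is highest on each axis, and Tn tumour 4 has 23.2 CPM of Des with a muscle sum of 8.76 CPM.

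Per kilobase of exon, the order of mean levels in Tn tumours was Acta2 (42.8 CPM per kilobase), Pdgfrb (12.6), Rgs5 (8.24), Des (6.42), Tagln (1.497), Notch3 (1.46), Cnn1 (1.28), Abcc9 (1.22), Cspg4 (1.20) and Myh11 (0.721). In WT tumours the order on the same scale was Acta2 (150.6), Pdgfrb (23.9), Rgs5 (11.98), Cnn1 (8.08), Tagln (4.798), Cspg4 (4.19), Abcc9 (3.54), Notch3 (2.87), Des (2.64) and Myh11 (2.28). Neighbours in the order from Rgs5 down to Myh11 in Tn tumours, and from Tagln down to Myh11 in WT tumours, differed by less than the SD between tumours of the gene above.

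Tn tumours 4 and 5 were above the Tn mean in all 10 genes, and one or the other was the highest Tn tumour for each of the 10. Tn tumour 6 was the lowest Tn tumour in 6 genes. WT tumour 1 was the lowest WT tumour in 9 genes, and WT tumour 6 the highest in 5. After each group's mean was removed, the correlation of log2 CPM over the 12 tumours had a median r of 0.75 over the 36 pairs of genes without Des (0.14 to 0.98) and of 0.15 over the 9 pairs with it (-0.02 to 0.36). Notch3 had low values too, with Cnn1 (r = 0.14), Pdgfrb (r = 0.17) and Acta2 (r = 0.28), and Tn tumour 6 was second only to Tn tumour 4 among Tn tumours in Notch3, at 14.6 CPM. The closest pairs were Acta2 with Tagln (r = 0.98), Acta2 with Cnn1 (r = 0.96) and Rgs5 with Abcc9 (r = 0.94). These values describe 12 tumours that share library and depth between genes, and no test was made of them.

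**Figure D3:**
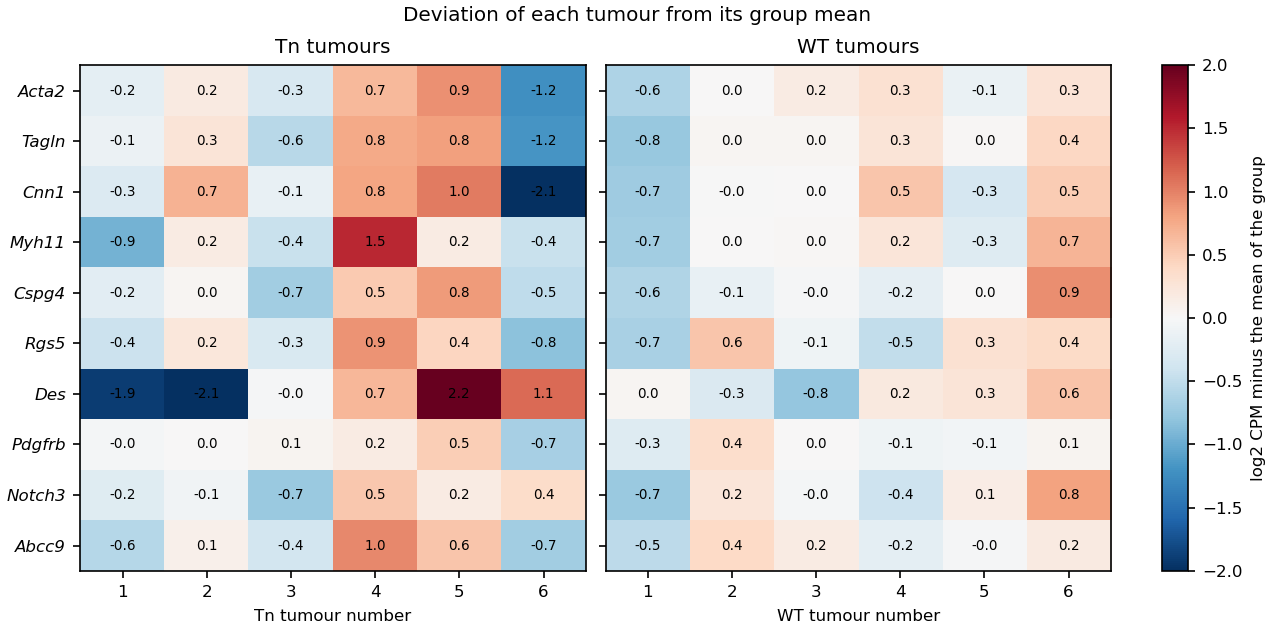
Log2 CPM of each gene in each tumour minus the mean of its group, with Tn tumours in the left panel and WT tumours in the right. Tn tumours 4 and 5 are above the group mean in all 10 genes, and WT tumour 1 is lowest of its group in 9.

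Other genes of the contractile apparatus moved the same way in part. Of 25 listed genes 24 were tested, of which 15 fell and 0 rose, with a median log2 fold change of -0.68. The other smooth muscle actin, Actg2, was at 8.06 ± 4.45 CPM in Tn tumours and 39.2 ± 12.1 CPM in WT tumours (SD, n = 6 each), and changed by -2.28 ± 0.42 on the log2 scale (SE, edgeR adjusted p = 0.00153). The myosin light chain Myl9 (-1.62), tropomyosin Tpm1 (-0.83), filamin Flna (-0.77) and the scaffold Pdlim7 (-0.77) also fell. Caldesmon, Cald1, did not pass at 471.2 ± 82.2 CPM in Tn tumours and 565.2 ± 51.7 CPM in WT tumours. Smoothelin, Smtn, named after its values were seen, was at 155.5 ± 23.8 CPM in Tn tumours and 155.2 ± 23.1 CPM in WT tumours. Without Tn tumours 4 and 6 and WT tumour 6, 11 of the listed genes fell.

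Of 13 transcription regulators of mural cells, 8 fell and 1 rose, with a median log2 fold change of -0.58. Myocd, myocardin, the partner that directs SRF to smooth muscle genes, was low throughout. It ran from 0.0164 to 0.0742 CPM in Tn tumours and from 0.143 to 0.279 CPM in WT tumours, with no overlap. Myocd fell by 2.17 ± 0.31 on the log2 scale (SE, edgeR adjusted p = 0.000338). It passed the filter on low counts only through its WT levels, so its fall and lack of overlap are a description and not separate support. Tbx18, a T-box factor of mural cells, fell by 1.38 (edgeR adjusted p = 8.7e-05), Gata6 by 1.86, the SRF cofactor gene Mrtfb by 0.58 and Srf itself by 0.30 on the log2 scale. Klf4, a repressor of contractile genes in cultured smooth muscle, was the one that rose, by 1.00 on the log2 scale, and it is named after its value was seen. Epithelial and endothelial cells also express Klf4.

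Of 21 further pericyte genes, Kcnj8 among them, 12 fell and 1 rose, with a median log2 fold change of -0.73. The count that rose was 2 without Tn tumour 3 or without WT tumour 2, 2 with DESeq2 and 3 with limma voom. The phosphodiesterase Pde5a (-1.87), the amine oxidase Aoc3 (-1.89), the cation channel Trpc6 (-1.44) and the adhesion molecule Mcam (-0.73) fell. Lhfpl6 was at 78.6 ± 10.1 CPM in Tn tumours and 78.5 ± 7.02 CPM in WT tumours. Angpt1, the pericyte ligand that steadies endothelium through the receptor Tek, went the other way. It ran from 29.9 through a median of 56.7 to 196.9 CPM in Tn tumours, against 3.75 through 5.25 to 9.05 CPM in WT tumours, with no overlap, and its log2 fold change was 3.87 ± 0.46 (SE, edgeR adjusted p = 0.000116). Its highest value was in Tn tumour 6, where Acta2 and Pdgfrb were lowest. Which cells of the tumour made it was not tested.

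**Figure D4:**
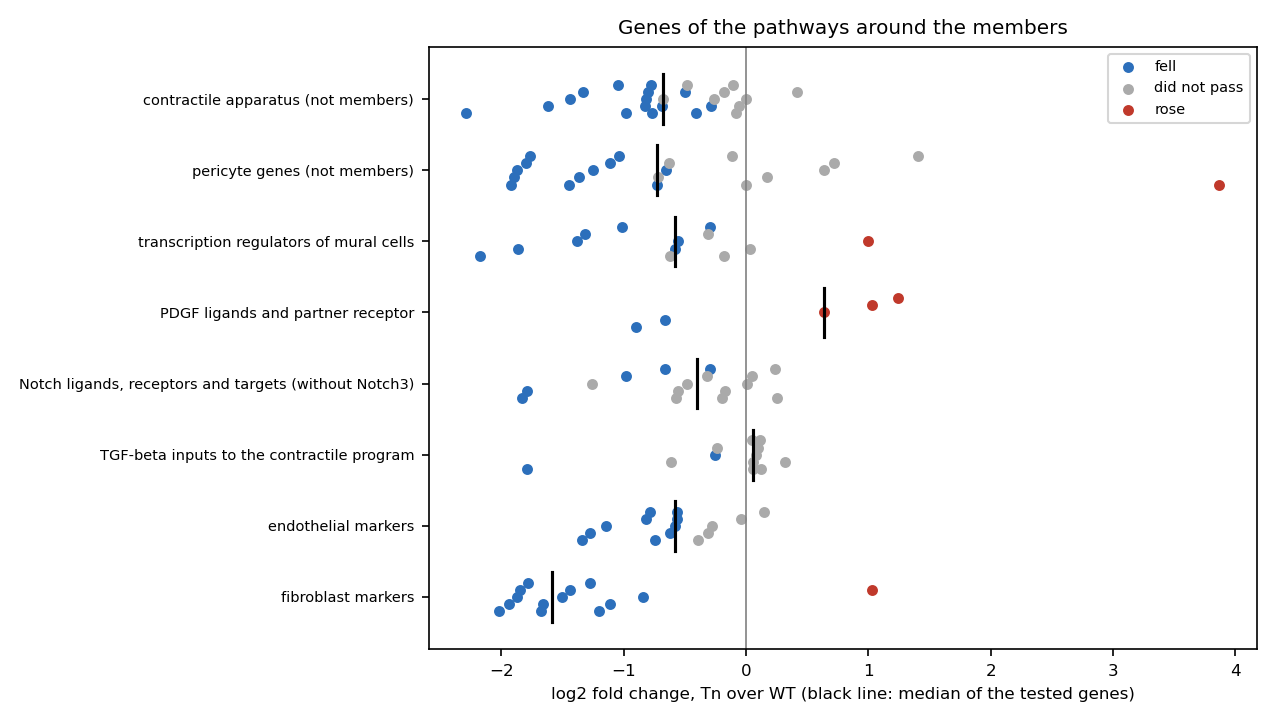
Log2 fold changes, Tn over WT, of the tested genes of 8 lists around the 10 genes, with 1 point per gene, blue where it fell, red where it rose and grey where it did not pass, and a black line at the median of each list. Medians lie below 0 for the contractile, pericyte, regulator, Notch, endothelial and fibroblast lists, and the red point near 3.87 is Angpt1.

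The ligands of the platelet-derived growth factor family split. Pdgfb, the endothelial ligand of Pdgfrb, ran from 35.9 through a median of 57.5 to 76.1 CPM in Tn tumours and from 79.0 through a median of 99.7 to 147.3 CPM in WT tumours, and it fell by 0.90 on the log2 scale with no overlap (edgeR adjusted p = 0.00309). Pdgfd, the other ligand of this receptor, fell by 0.66. Pdgfa and Pdgfc, ligands of the partner receptor Pdgfra, rose by 0.63 and 1.25, and Pdgfra rose by 1.03 (edgeR adjusted p = 0.00247). Pdgfra ran from 80.9 to 210 CPM in Tn tumours and from 59.7 to 97.7 CPM in WT tumours.

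Of 16 Notch genes other than Notch3, 5 fell and 0 rose. The targets Heyl (-1.79), Hey1 (-1.83) and Nrarp (-0.98) fell, as did the coactivator Maml1 (-0.29) and, named after its value was seen, the endothelial receptor Notch4 (-0.66). Heyl, a target of Notch3 in mural cells, ran from 2.69 to 10.8 CPM in Tn tumours and from 15.2 to 36.0 CPM in WT tumours, with no overlap. The ligands Jag1 (-0.57, edgeR adjusted p = 0.0724) and Dll4 (-0.56, edgeR adjusted p = 0.0541), and Hey2 (-1.25, edgeR adjusted p = 0.0536), did not pass. The count of falls was 8 without Tn tumour 5, where 1 gene rose, 8 with DESeq2, and 9 with limma voom, where 1 gene also rose. Of 12 genes of transforming growth factor beta signalling, which induces the contractile program, 2 fell and 0 rose, and the signal transducer Smad4 fell by 0.25 on the log2 scale. The ligands Tgfb2 (-0.62) and Tgfb3 (0.32) did not pass, and 1 gene of the list rose without Tn tumour 2, without Tn tumour 4 or without WT tumour 1. Without Tn tumours 4 and 6 and WT tumour 6, 1 gene of the list fell and 1 rose.

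Most fibroblast markers, and endothelial markers in part, moved with the mural genes. Of 15 endothelial markers 10 fell and 0 rose, with Kdr (-1.14), Vwf (-1.27), Tek (-1.34) and Cdh5 (-0.74). Pecam1, at 110.5 ± 32.3 CPM in Tn tumours and 134 ± 24.9 CPM in WT tumours, did not pass. The endothelial count was 6 without WT tumour 3 and 4 without Tn tumours 4 and 6 and WT tumour 6. Of 14 fibroblast markers 13 fell, led by Col1a2 (-1.87), Col3a1 (-2.02), Postn (-1.44) and Col1a1 (-1.84), and Pdgfra alone rose. The summed endothelial level ran from 345 to 657 CPM in Tn tumours and from 480.3 to 803.6 CPM in WT tumours, and the summed fibroblast level from 3691 to 5133 CPM in Tn tumours and from 8469 to 21670 CPM in WT tumours.

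Myoepithelial cells also make Acta2, Cnn1 and Myh11, and of 8 markers of these and other basal cells 0 rose and 0 fell at the threshold. Their fold changes were split. Those of Krt5, Krt14, Krt17, Trp63 and Lgals7 were positive, and those of Oxtr (-2.49), Mme (-1.48) and Jag2 (-0.48) were negative. Their sum ran from 31.0 to 3075 CPM in Tn tumours and from 68.7 to 799.4 CPM in WT tumours. Tn tumour 6, with the highest sum, had the lowest Acta2 and Cnn1, and Krt14 alone made up 1483 CPM of its sum. Schwann cell markers, which matter for Cspg4, summed to between 3.00 and 12.9 CPM in Tn tumours and between 7.08 and 34.5 CPM in WT tumours, and 2 of 5 tested fell. Of these, Sox10 was highest in WT tumour 6, at 15.1 CPM, where Cspg4 was highest too. Adipocyte markers summed to between 50.9 and 336.2 CPM in Tn tumours and between 36.3 and 1334 CPM in WT tumours, and 2 of 7 fell. Of 7 carcinoma epithelium markers 2 fell and 0 rose, and of 7 leukocyte markers 4 rose and 0 fell. With 1 tumour left out in turn, 0 to 2 myoepithelial, 0 to 3 Schwann, 1 to 5 adipocyte and 1 to 2 carcinoma markers fell, with 5 adipocyte markers without WT tumour 1. In the same settings 0 to 1 myoepithelial and 0 to 1 carcinoma markers rose, and 0 to 1 leukocyte markers fell. Without Tn tumours 4 and 6 and WT tumour 6, 1 marker fell in each of the myoepithelial, Schwann, adipocyte and leukocyte lists. The part of any of these cells in the level of the mural genes was not tested.

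To ask whether the mural genes differed from the level of vessel lining, the same test was run on all genes with each tumour scaled to the geometric mean of the endothelial markers. This scaling moved the median of all genes to 0.65, with 4.01% of genes called lower and 51.1% called higher. Of the 10 genes, 6 were lower in Tn tumours, namely Cnn1 (-2.12), Acta2 (-1.26), Cspg4 (-1.20), Tagln (-1.11), Myh11 (-1.05) and Abcc9 (-0.95), with edgeR adjusted p from 0.000132 for Cnn1 to 0.00809 for Myh11. Pdgfrb (-0.33 ± 0.18 SE, edgeR adjusted p = 0.111), Notch3 (-0.27 ± 0.25 SE, edgeR adjusted p = 0.347) and Rgs5 (0.06 ± 0.22 SE, edgeR adjusted p = 0.817) did not pass on this scale. Rgs5 was slightly below 0 without Tn tumour 4, at -0.12. Des was called higher at 1.81 (edgeR adjusted p = 0.035), a call lost with limma voom (0.11) and without any one of 9 of the 12 tumours.

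**Figure D5:**
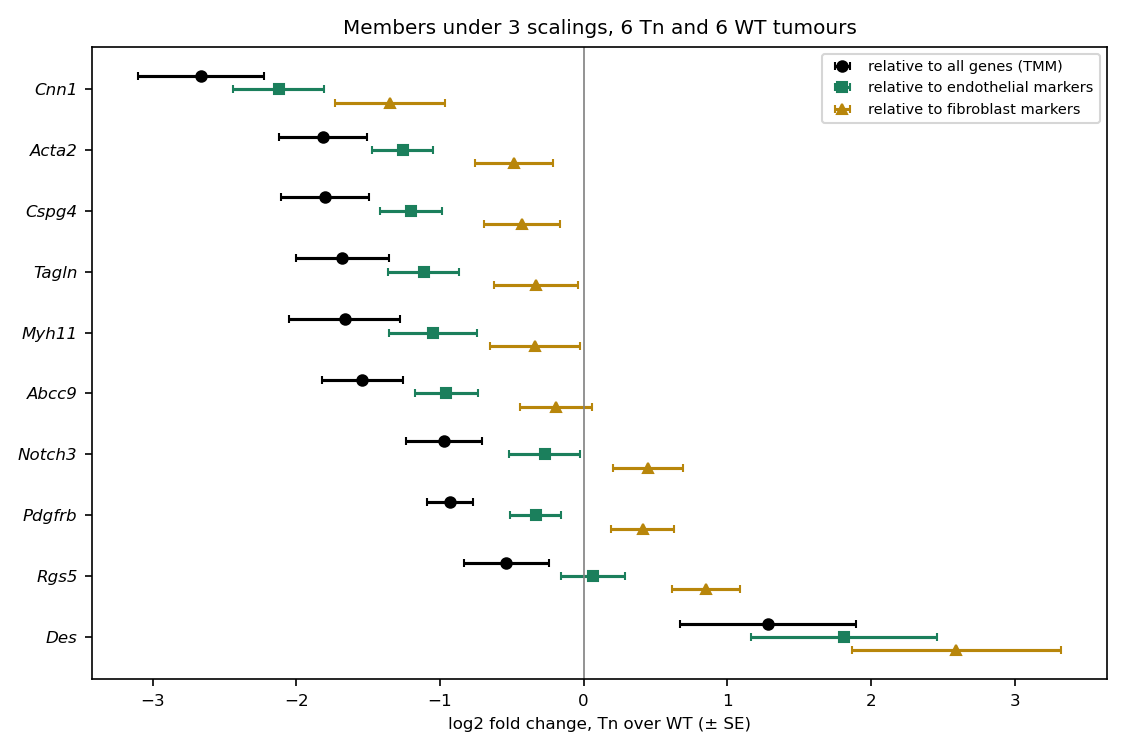
Log2 fold change, Tn over WT, with its SE for each of the 10 genes, relative to all genes (black circles), to endothelial markers (green squares) and to fibroblast markers (gold triangles). Cnn1 is below 0 on all 3 scales, and Rgs5, Pdgfrb and Notch3 lie near 0 relative to endothelial markers.

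Relative to the fibroblast markers, where the median of all genes moved to 1.32 and 1.09% of genes were called lower and 81.6% higher, Cnn1 alone of the 10 was lower (-1.35 ± 0.38 SE, edgeR adjusted p = 0.00374). Rgs5 (0.85 ± 0.24 SE, edgeR adjusted p = 0.00178) and Des (2.59 ± 0.73 SE, edgeR adjusted p = 0.00673) were higher, and the other 7 did not pass. This comparison depended on how the markers were summarised. With their median in place of the geometric mean, 6 of the 10 were lower and 0 higher, and Pdgfrb (-0.40) and Notch3 (-0.44) changed sign. The share of all genes called with the median is not given here, so these 6 have no background beside them.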

How the data were processed

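RNA of 12 tumours, 6 Tn and 6 WT, was sequenced by the submitters as stranded poly(A) libraries of 1 labelled batch. The submitters' processing notes name FastQC, fastp 0.23, STAR 2.7.11a and the build GRCm39. The table the authors deposited holds raw counts per gene, made, per the file headers, by featureCounts 2.1.1 over exons of the Ensembl 112 annotation, unstranded and without the setting that treats both mates as a single fragment. Counts may therefore run above the number of fragments, and overlapping genes are uncertain. Of 57186 identifiers, 56630 were paired with a symbol of a later GRCm39 annotation. The deposited gene lengths, in bases, served for CPM per kilobase.

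Here, edgeR 4.0.16 in R 4.3.3 was run with TMM scaling, filterByExpr and robust quasi-likelihood fits on 19255 genes, with Benjamini-Hochberg adjustment of its p-values (2 sides), and was tested on simulated data. Each SE was taken as the fold change (log2) over the square root of F. Further fits scaled tumours to marker lists, and the skeletal muscle covariate is the mean log2 CPM of its markers. Correlations used log2 CPM with a prior count of 2. The biological coefficient of variation was 0.358, and libraries within a group differed by more than sampling noise (lowest chi-square over its degrees of freedom, 41.4). The labels call the tumours biological replicates. Alternatives used DESeq2 1.42.0 and limma 3.58.1.

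The 10 genes and the 15 lists were chosen with earlier results of these data known. Genes named are the 10, from each list up to 4 with the smallest p and up to 2 with the highest mean, their partners, the defining markers, and 8 genes nearest to each of 2 sets in pattern. Others are said to be named after their values were seen, and 1 gene that the rule names is not reported here. Library names carry numbers up to 12 for Tn and from 17 for WT, and an effect of that order cannot be told apart from the group.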

Additional observations from a re-analysis of the deposited data

Results flagged for a closer look

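Of 20 sets of 6 values (10 genes in each group), 2 had a sample far from the others by Dixon's criterion, which chance meets in about 1 of 20. Myh11 was at 13.2 CPM in Tn tumour 4, where the next highest Tn tumour had 5.198 CPM. Leaving out Tn tumour 4 gave a change of -2.13 (edgeR adjusted p = 0.000206). Cspg4 was at 90.3 CPM in WT tumour 6, where the next highest WT tumour had 47.7 CPM.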

How the results depend on the processing

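Over 22 alternatives each, 7 of the 10 genes stayed lower and called. Notch3 lost its call at an adjusted p threshold of 0.01 (edgeR adjusted p = 0.0124; 0.000978 to 0.0295 over its alternatives), Rgs5 gained one without Tn tumour 4 and Des one without Tn tumour 2. With 1 tumour left out in turn, 8 to 9 of the 10 genes were lower and 0 to 1 higher. At the threshold of 0.01, 2109 genes of all rose and 1916 fell. With upper-quartile scaling, 3094 genes rose and 3844 fell, against 3752 and 3342 with TMM. Relative to endothelial markers, 0 of the 10 genes were higher with limma voom, with no filter, at 0.01, with the replicate block, without Tn 4, Tn 6 and WT 6, and 0 to 1 with 1 tumour left out. There Rgs5 changed sign to -0.0269 with limma voom and -0.0473 without those 3 tumours, and ran from -0.12 (without Tn 4) to 0.17 with 1 tumour left out, where it was also below 0 without WT 4 (-0.0182). Relative to fibroblast markers, the median of the list gave 6 lower and 0 higher, with Pdgfrb at -0.40 and Notch3 at -0.44. Without Pdgfra, a setting chosen after seeing the data, 4 were higher and 1 lower, and with 1 tumour left out 1 to 3 were lower and 2 to 3 higher. The shares of all genes called in these settings are not given here, so the counts have no background beside them. The cause of these shifts was not tested. Same-numbered tumours correlated at -0.125 to 0.158, and 1 of 6 Tn and 0 of 6 WT tumours correlated best with its own number. The expression values thus showed no pairing by number, and whether the tumours were paired in the experiment was not tested. With the replicate block 8 of the 10 genes were lower, Des was at 0.66 (edgeR adjusted p = 0.397), 2998 genes of all rose and 2878 fell, and 2 of the 10 were lower relative to fibroblast markers. Depth limits the precision of Myocd, which was at no more than 0.279 CPM in any tumour.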

Other observations

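Genes that varied most like the mural genes within the groups were ranked by Pearson's r over 12 tumours after the group means were removed, as a description over tumours that share library and depth. Nearest to the mean of Acta2, Tagln, Cnn1 and Myh11 were the myosin light chain Myl9 (r = 0.98), Dcbld1 (r = 0.96), Khdrbs3 (r = 0.95), Gm48709 (r = 0.94), Actg2 (r = 0.94), the actin-severing gene Scin (r = 0.94), the motor Myo5b (r = 0.94) and the endothelin receptor Ednrb (r = 0.94). Without the 2 tumours farthest from the median, Tn tumours 6 and 4, their r ran from 0.85 to 0.95, and Spearman's rho over all 12 from 0.88 to 0.97. Of these 8, Myl9, Dcbld1, Khdrbs3, Actg2 and Ednrb also fell in Tn tumours, and Gm48709 (-0.80), Scin (-0.14) and Myo5b (0.72) did not pass.

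Nearest to the mean of Pdgfrb, Rgs5, Notch3, Abcc9 and Cspg4 were Hoxc6 (r = 0.97), the adaptor Grb10 (r = 0.96), the endothelial exchange factor Fgd5 (r = 0.96), Snhg18 (r = 0.96), the RNA-binding gene Rbms3 (r = 0.96), the endothelial matrix gene Mmrn2 (r = 0.95), Dpysl3 (r = 0.95) and the endothelial receptor Kdr (r = 0.95). Without WT tumour 1 and Tn tumour 4 their r ran from 0.94 to 0.96. All 8 fell in Tn tumours, by 0.93 to 1.52 on the log2 scale.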
